A study of Mus musculus with 9 samples.

Results

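The transforming growth factor beta (TGF-β) system was described through 9 mouse genes, taken by symbol from the gene lists of 9 Drop-seq libraries: the ligands Tgfb1, Tgfb2 and Tgfb3, the receptors Tgfbr1, Tgfbr2 and Acvrl1, the co-receptor Eng, and the inhibitory Smads Smad6 and Smad7. All 9 were among the 12580 symbols listed in every library. The cells were mouse-derived cells of the tumor microenvironment (TME) of patient-derived orthotopic xenografts (PDOXs), in which human glioblastoma (GBM) organoids grow in the mouse brain. The study asked how these host cells differ between tumors and the normal brain and after temozolomide (TMZ), an alkylating chemotherapy. Drop-seq captures messenger RNA of single cells on barcoded beads and counts molecules by unique molecular identifiers (UMIs).

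The PDOX group held 7 untreated tumors, P3, P8, P13, T16, T101, T192 and T233, 1 library each, collected at the endpoint of growth. P3TMZ was a P3 tumor whose host received temozolomide by oral gavage, whereas the untreated P3 host received the vehicle. Nu-NB was 1 normal nude mouse brain. All hosts were female athymic nude mice, which lack most mature T cells, and the ages of the animals were not given in the sources used here. T192 and T233 were grown from tumors of 1 patient. Mouse cells of P8 and Nu-NB were separated by FACS and those of the other PDOXs by magnetic depletion, so for Nu-NB the sort and the absence of a tumor cannot be told apart outside the comparison with P8.

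TGF-β ligands are secreted in a latent form and act, once released, through a complex of the type II receptor encoded by Tgfbr2 with a type I receptor, which is Tgfbr1 in most cells and, in endothelial cells, also Acvrl1 (ALK1) with the co-receptor endoglin. Activated receptors phosphorylate Smad transcription factors, and the inhibitory Smads encoded by Smad6 and Smad7 are induced by the pathway and dampen it. In the brain, TGF-β signaling is known for maintaining microglial identity and for the development and stability of vessels.

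Promoter windows of 280 bases, 250 before and 30 from the annotated start, were read from RefSeq (GRCm38.p6) and matched 6 of the 9 members. The Eng window is shown because Eng marked the endothelial-like cells, and those of Tgfb1 and Tgfbr2 because both were highest in the myeloid-like cells and their levels moved together. They lie at chr2:32646345-32646624 on the plus strand, chr7:25686752-25687031 on the plus strand and chr9:116175334-116175613 on the minus strand, and are printed 5′ to 3′ along the gene, with GGAA or its reverse complement TTCC, the core letters bound by ETS factors, in capitals.
Eng: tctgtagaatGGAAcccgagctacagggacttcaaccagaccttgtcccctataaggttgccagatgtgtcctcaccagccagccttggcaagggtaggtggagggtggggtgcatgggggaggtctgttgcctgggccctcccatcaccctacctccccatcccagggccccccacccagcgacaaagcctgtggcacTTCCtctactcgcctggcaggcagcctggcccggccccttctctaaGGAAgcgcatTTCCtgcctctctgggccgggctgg
Tgfb1: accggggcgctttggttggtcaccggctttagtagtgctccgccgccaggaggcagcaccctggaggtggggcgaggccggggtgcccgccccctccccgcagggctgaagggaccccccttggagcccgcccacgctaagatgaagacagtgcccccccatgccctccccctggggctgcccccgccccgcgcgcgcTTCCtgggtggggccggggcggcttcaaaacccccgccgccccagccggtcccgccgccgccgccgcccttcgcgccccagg
Tgfbr2: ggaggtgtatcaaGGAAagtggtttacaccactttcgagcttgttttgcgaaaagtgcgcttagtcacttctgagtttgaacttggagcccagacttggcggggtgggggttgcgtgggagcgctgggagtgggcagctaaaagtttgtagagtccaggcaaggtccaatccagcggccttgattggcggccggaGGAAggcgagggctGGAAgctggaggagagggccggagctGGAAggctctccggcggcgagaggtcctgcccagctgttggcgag

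The Eng and Tgfbr2 windows held 4 matches each to the core letters and the Tgfb1 window held 1, counted on both strands. At least 1 match was held by 95.1% of 32851 windows. Over all windows only this share was taken for each motif, not the number of matches, so whether 4 is ordinary was not tested. The GC box GGGCGG, counted on both strands, occurred 6 times in the Tgfb1 window, 4 times in that of Smad6 and in neither of those of Eng and Tgfbr2, and 34.7% of all windows held it. The Smad-binding letters CAGAC, again on both strands, occurred 2 times in the Eng window, 1 time in that of Tgfbr2 and not in that of Tgfb1, against 46.8% of all windows. The palindrome GTCTAGAC, which contains no GC box or GGAA, spanned the annotated start of Smad6 (chr9:64022030-64022309, minus strand) and was held by 63 of all windows, or 0.192%. Tgfbr1, also highest in the myeloid-like cells, had 2 windows, which are not printed. That at chr4:47352972-47353251 held 0 matches to GGAA, 0 to CAGAC and 2 to the GC box. That at chr4:47385966-47386245 held 6, 1 and 0. These matches describe the letters only.

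The libraries held 1294068 to 8410580 UMIs, and 14626 cells were kept, 722 to 2771 a library, with medians of 513 to 1275 UMIs per cell. At most 2 cell barcodes were shared by any pair of libraries, in 8 of 36 pairs. Cells were grouped without the members or other pathway genes, and classes were named from fixed markers, with "-like" for the rebuilt names. The 7 PDOXs gave 3002 myeloid-like cells, 1944 endothelial-like cells, 2005 astrocyte-like cells, 534 mural-like cells (pericytes and smooth muscle) and 821 oligodendrocyte progenitor (OPC)-like cells, and 2288 cells stayed unnamed. Among the unnamed was cluster 12, which met the myeloid markers and had H2-Ab1, Cd74, S100a8, Ly6c2 and Ccr2 among its leading genes, with 319 cells in T101 (21.3% of the library, against 62 myeloid-like cells), 0.108% to 2.96% of the cells in the other 6 PDOXs and 1.296% in Nu-NB. It stayed unnamed because its 10 leading genes held a marker of the neutrophil list (S100a8) and none of the myeloid list, by a naming rule set after the clusters were seen. A further 531 PDOX cells were left out as mixed, in clusters 13 and 16, which met the myeloid markers together with astrocyte or cycling markers. These clusters held 191 and 111 cells in P13, against 388 myeloid-like cells. In T16, cluster 13 held 105 cells, against 252. Within its own class, the summed level of the 12 class markers was 35717 to 44895 CPM (UMIs of the genes scaled to the total of the class in a library) for myeloid, 12711 to 25035 for endothelial, 34114 to 45870 for astrocyte, 20720 to 30141 for mural and 10508 to 12685 for OPC. Myeloid markers summed to medians of 644 to 1141 CPM in the other 4 classes. The mural-like class also held fibroblast markers, with 275 of 577 cells over all libraries (47.7%) carrying at least 2 of the 10.

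Each class was set against the mean of the log levels of the other 4 classes, with the PDOX as a block, over 4832 genes with enough UMIs (edgeR quasi-likelihood test, called at an adjusted p of at most 0.01 and a log2 fold change of at least 1 in size). Tgfb3 and Smad6, with 60 and 50 UMIs in all, fell under the filter, so 7 of the 9 members were tested. In myeloid-like cells 5 of the 7 were called higher and 1 lower, against 19.6% and 15.9% of all genes. In endothelial-like cells 5 were called higher and 1 lower, against 14.4% and 16.1%. In astrocyte-like cells 0 were called higher and 2 lower, against 16.7% and 12.8%. In mural-like cells 1 was called higher and 0 lower, against 9.25% and 4.33%. In OPC-like cells 0 were called higher and 6 lower, against 10.5% and 14.9%. Over these 5 contrasts, the median log2 fold change of all genes lay between -0.13 and 0.08. A member at or near 0 in 1 class pulls the mean of the logs down, so it can be called higher in a class that another class exceeds; the levels themselves therefore stand beside each call.

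**Figure D1:**
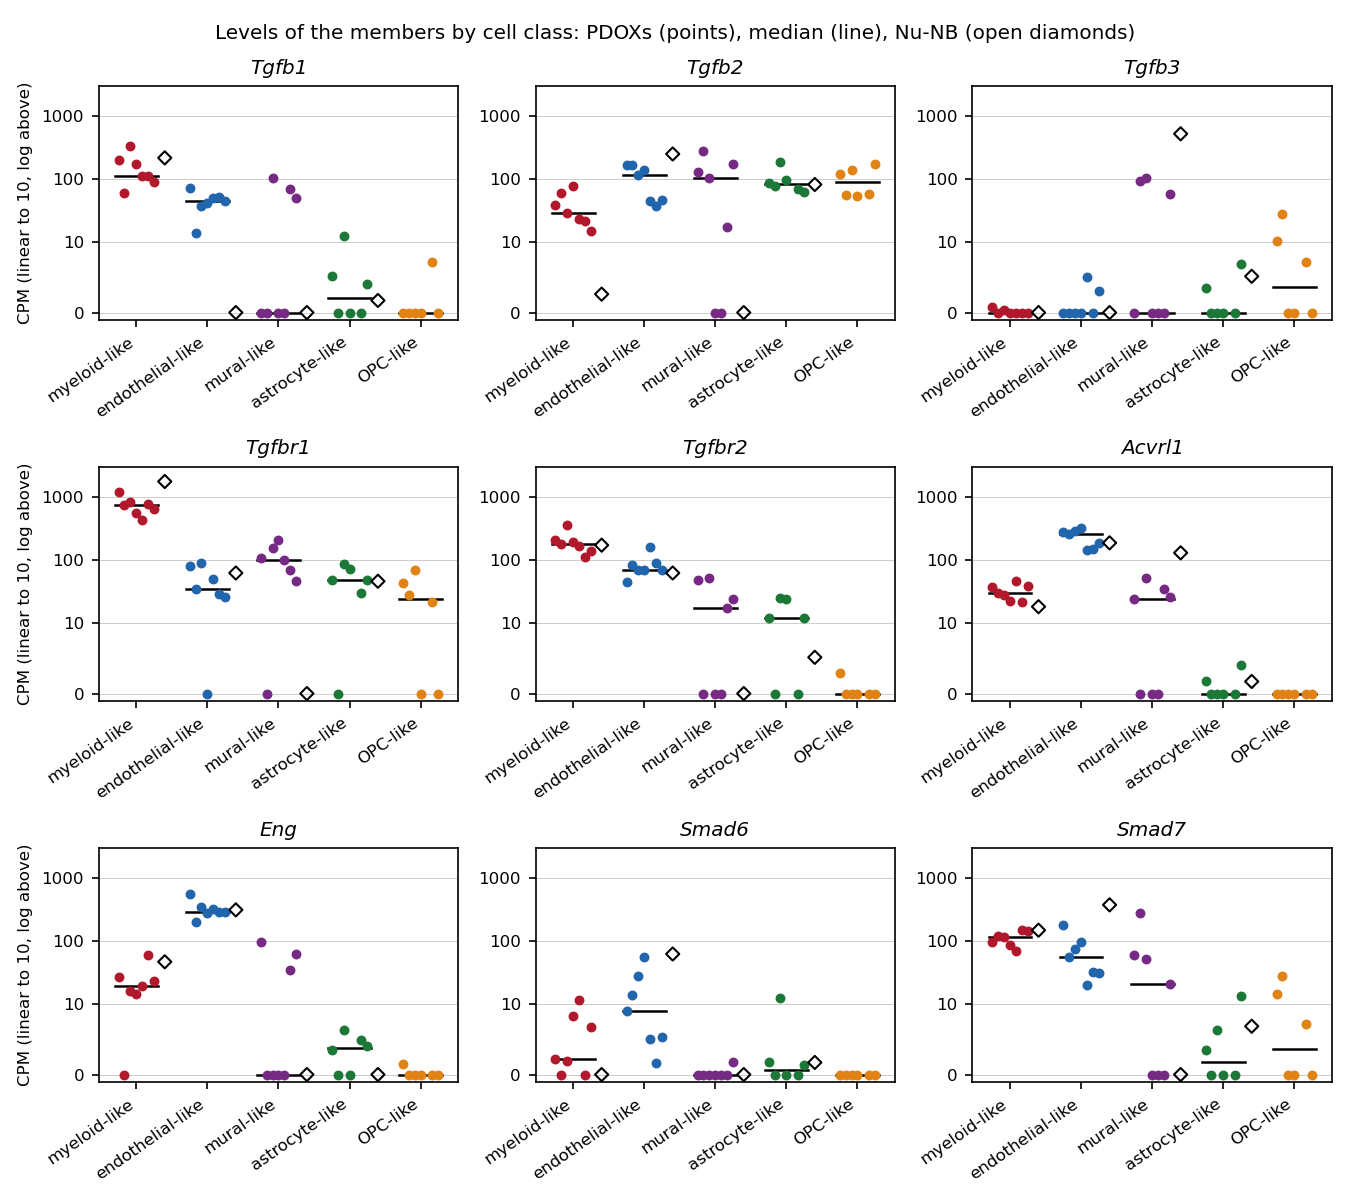
Levels of the 9 members (CPM, axis linear to 10 and logarithmic above) in 5 cell classes, with 1 point per PDOX (6 or 7 of them, sums of at least 10 cells), a line at the median and an open diamond for Nu-NB. Tgfbr1, Tgfb1 and Tgfbr2 sit highest in myeloid-like cells, Acvrl1 and Eng in endothelial-like cells, and Tgfb2 lies within 37.1 and 285 CPM in most points of the other 4 classes.

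The ligands differed in where they were found. Tgfb1 (chr7:25687002-25705077, GRCm38), the main ligand of immune cells, was carried by myeloid-like cells at 60.1, 114 and 334 CPM (lowest, median and highest of 7 PDOXs) and by endothelial-like cells at 13.9, 45.3 and 72.0 CPM. T192 had the highest myeloid level and T101 the lowest, and in each of the 7 PDOXs the myeloid level was above the endothelial level, although the ranges overlapped. Astrocyte-like cells held 8 UMIs of Tgfb1 in 2003 cells and OPC-like cells 1 UMI in 821 cells. Mural-like cells held 35 UMIs, with 0 in 4 of 7 PDOXs and up to 104 CPM in the others, the highest value coming from 41 cells of T192. Endothelial-like cells were above mural-like cells in 4 of 7 PDOXs (exact permutation p = 0.53). Against the other classes, Tgfb1 was higher by 4.13 (SE 0.28) on the log2 scale in myeloid-like cells (edgeR quasi-likelihood test, adjusted p = 5.87e-19) and lower by a log2 fold change of -4.92 (SE 0.85) in OPC-like cells. The endothelial call (log2 fold change 1.55, SE 0.37, edgeR adjusted p = 0.00037) was made with a mean of 44.7 CPM against 52.0 CPM in the other classes, above that mean in 3 of 7 PDOXs. It was not called without P8 (log2 fold change 0.995), with DESeq2 (0.976) or with cells of 2 classes' markers kept (0.952), and the OPC value was not called without P8 (-3.19). Myeloid markers in endothelial-like cells summed to a median of 738 CPM, against 40730 CPM in myeloid-like cells, and their part in the endothelial Tgfb1 level was not tested.

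Tgfb2 (chr1:186622792-186705989) had a lower median in myeloid-like cells than in each of the other 4 classes. Its lowest, median and highest levels were 37.1, 118 and 171 CPM in endothelial-like, 0, 104 and 285 CPM in mural-like, 54.7, 89.7 and 172 CPM in OPC-like and 61.9, 82.9 and 190.3 CPM in astrocyte-like cells, against 15.2, 28.7 and 78.3 CPM in myeloid-like cells. The highest mural value was 3 UMIs in T101, and the mural median came from 41 cells of T192. Myeloid-like cells were below endothelial-like cells in 7 of 7 PDOXs and below astrocyte-like cells in 6 of 6. They were below mural-like cells in 4 of 7 (exact permutation p = 0.22) and below OPC-like cells in 4 of 6 (exact permutation p = 0.125). The myeloid contrast was a log2 fold change of -1.24 (SE 0.27, edgeR quasi-likelihood adjusted p = 0.00010), and -0.92 without P13, which ended the call. Among the other 4 classes Tgfb2 was called in none, with log2 fold changes from -0.13 to 0.83, and endothelial levels split the PDOXs, with P8, T101, T192 and T233 at 118 to 171 CPM and P3, T16 and P13 at 37.1 to 46.8 CPM.

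Tgfb3 (chr12:86056745-86079041) was counted 60 times in the 5 classes. Mural-like cells gave 37 of these UMIs, in 3 of 7 PDOXs, T192, T101 and P13. The mural level was 0, 0 and 104 CPM, and 34 of the 37 UMIs came from P13, which gave 216 of the 534 mural-like cells and 577834 mural UMIs, against 4727 to 83243 in each of the other PDOXs. Its level of 58.8 CPM was below those of T101 and T192, which rested on 1 and 2 UMIs. The exact sign-flip permutation test over 7 PDOXs gave p = 0.25 for mural-like against myeloid-like cells. In Nu-NB, 4 Tgfb3 UMIs lay in 15 mural-like cells (525 CPM, 95% exact Poisson interval 143 to 1343).

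The signaling receptors were both most abundant in myeloid-like cells. Tgfbr1 (chr4:47353222-47414931) stood at 439.5, 751 and 1195 CPM in myeloid-like cells, with P3 lowest and P8 highest, and no value of the other 4 classes reached this range. Mural-like cells were at 0, 100.6 and 212 CPM, astrocyte-like cells at 0, 49.1 and 88.8 CPM, endothelial-like cells at 0, 34.8 and 89.8 CPM and OPC-like cells at 0, 24.8 and 70.6 CPM. The mural median was 1 UMI in P3, and the highest mural value came from 14 cells of T233. Pooled over PDOXs, Tgfbr1 was at 59.1 CPM in mural-like, 50.4 in astrocyte-like, 35.8 in endothelial-like and 38.9 in OPC-like cells. The myeloid contrast was a log2 fold change of 4.40 (SE 0.19, edgeR quasi-likelihood adjusted p = 3.85e-28), and Tgfbr1 was called lower in endothelial-like (-1.23, SE 0.27) and OPC-like cells (-2.15, SE 0.38). Below the myeloid level the classes were not in a firm order, since neighbouring classes gave exact permutation p values from 0.0625 to 0.81 over 6 or 7 PDOXs.

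Tgfbr2 (chr9:116084293-116175360) was found in myeloid-like cells at 114, 180.4 and 356 CPM and in endothelial-like cells at 45.0, 70.9 and 163 CPM. The myeloid level exceeded the endothelial level in 7 of 7 PDOXs, with P3 closest, at 169.6 against 163 CPM. Mural-like cells had 0, 17.8 and 52.2 CPM, astrocyte-like cells 0, 12.3 and 25.4 CPM, and OPC-like cells 2 UMIs, both in P8. Tgfbr2 was higher by a log2 fold change of 3.75 (SE 0.25) in myeloid-like and of 1.92 (SE 0.30) in endothelial-like cells (edgeR quasi-likelihood test, adjusted p = 8.13e-20 and 2.29e-07). In endothelial-like cells the 7-PDOX mean of 84.6 CPM exceeded the 62.4 CPM of the other classes in 5 PDOXs.

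Acvrl1 and Eng, the endothelial arm of the system, were concentrated in endothelial-like cells. Acvrl1 (chr15:101128522-101145336) was at 148, 264 and 318 CPM there, with P3 lowest and T233 highest, against 21.7, 30.1 and 46.3 CPM in myeloid-like and 0, 24.0 and 52.2 CPM in mural-like cells. The endothelial range did not overlap with that of any other class. Astrocyte-like cells held 4 Acvrl1 UMIs, and OPC-like cells 0 of 821 cells, which put the pooled endothelial level at least 58.9-fold above the OPC level (3 UMIs over the group taken as the floor). The endothelial contrast was a log2 fold change of 5.22 (SE 0.29, edgeR quasi-likelihood adjusted p = 2.63e-21). Acvrl1 was also called higher in myeloid-like cells (log2 fold change 2.19, SE 0.38), where its mean of 32.2 CPM was below the 68.9 CPM of the other classes in 7 of 7 PDOXs. The 12 endothelial markers summed to 120.2 to 544 CPM in myeloid-like and 12711 to 25035 CPM in endothelial-like cells, and their part in the myeloid Acvrl1 level was not tested.

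Eng (chr2:32646595-32682669), which encodes endoglin, was at 202, 287 and 567 CPM in endothelial-like cells, with T101 lowest and P8 highest. Myeloid-like cells had 0, 19.3 and 59.5 CPM, mural-like cells 0, 0 and 96.1 CPM, astrocyte-like cells 0, 3.802 and 6.34 CPM, and OPC-like cells 1 UMI. As for Acvrl1, the endothelial range stood clear of every other class. The endothelial contrast was a log2 fold change of 5.13 (SE 0.24, edgeR quasi-likelihood adjusted p = 9.28e-26). Eng was called lower in astrocyte-like cells (-2.46, SE 0.78), a call that ended without P8, T101, T233 or P13 in turn (-1.79 to -2.53) and under 6 other settings (-1.76 to -2.56). The mural call (log2 fold change 1.80, SE 0.40) had a mean of 27.7 CPM against 100.8 CPM in the other classes, with 0 of 7 PDOXs above that mean, and ended without P8 (1.89) or P13 (1.43), with DESeq2 (1.24) and when mural cells with fibroblast markers were left out (1.37).

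Of the inhibitory Smads, Smad7 was found in myeloid-like and endothelial-like cells, and Smad6 was near the limit of detection. Smad7 (chr18:75367529-75395935) was at 69.4, 116 and 152 CPM in myeloid-like cells and at 20.4, 55.7 and 180.1 CPM in endothelial-like cells, and the ranges overlapped. Myeloid exceeded endothelial levels in 5 of 7 PDOXs, P8 and T233 being the others. Mural-like cells had 0, 20.8 and 285 CPM, the highest value being 3 UMIs in T101, and astrocyte-like and OPC-like cells reached 13.8 and 27.7 CPM. The myeloid contrast was a log2 fold change of 2.93 (SE 0.29, edgeR quasi-likelihood adjusted p = 3.65e-13), and Smad7 was called lower in astrocyte-like cells (-2.15, SE 0.50), although not without P8 (-1.52) or with at least 500 genes (-1.79). The endothelial call (1.17, SE 0.34) had 3 of 7 PDOXs above the mean of the other classes and ended without P8 (0.83), T192 (1.07) or T233 (1.06), with DESeq2 (1.11), RLE size factors (1.03) or at least 500 genes per cell (0.840), and when cells with markers of 2 classes were kept (0.68). The OPC call (-1.99, SE 0.59) ended without P8 (-2.22), T192 (-1.90) or P13 (-1.90), and without the PDOX block (-1.77). It also ended with DESeq2 (-2.02), T192 and T233 summed (-1.94), at least 20 cells a sum (-1.88), at least 500 genes (-1.59), 10% of doublets left out (-1.83) or fibroblast-marked mural cells left out (-1.68).

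Smad6 (chr9:63953076-64022059) was counted 50 times in the 5 classes. Endothelial-like cells held 22 UMIs and were above 0 in 7 of 7 PDOXs, at 1.61, 9.00 and 55.4 CPM. Myeloid-like cells had 23 UMIs in 5 PDOXs, mural-like cells 1 and OPC-like cells 0, and the pooled endothelial level was at least 2.46-fold above the OPC level. Endothelial-like cells were above astrocyte-like and OPC-like cells in 6 of 6 PDOXs and above mural-like cells in 7 of 7, each at the smallest exact permutation p the design allows (0.031 and 0.016, adjusted 0.078). Outside P13 the mural-like sums, of 14 to 129 cells, could miss a level like the endothelial median of 9.00 CPM, as could most OPC-like sums. The counts and p values against mural-like and OPC-like cells are therefore not read as a difference in level. The other 7 pairs gave p values from 0.0625 to 1.0 in the same exact test.

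**Figure D2:**
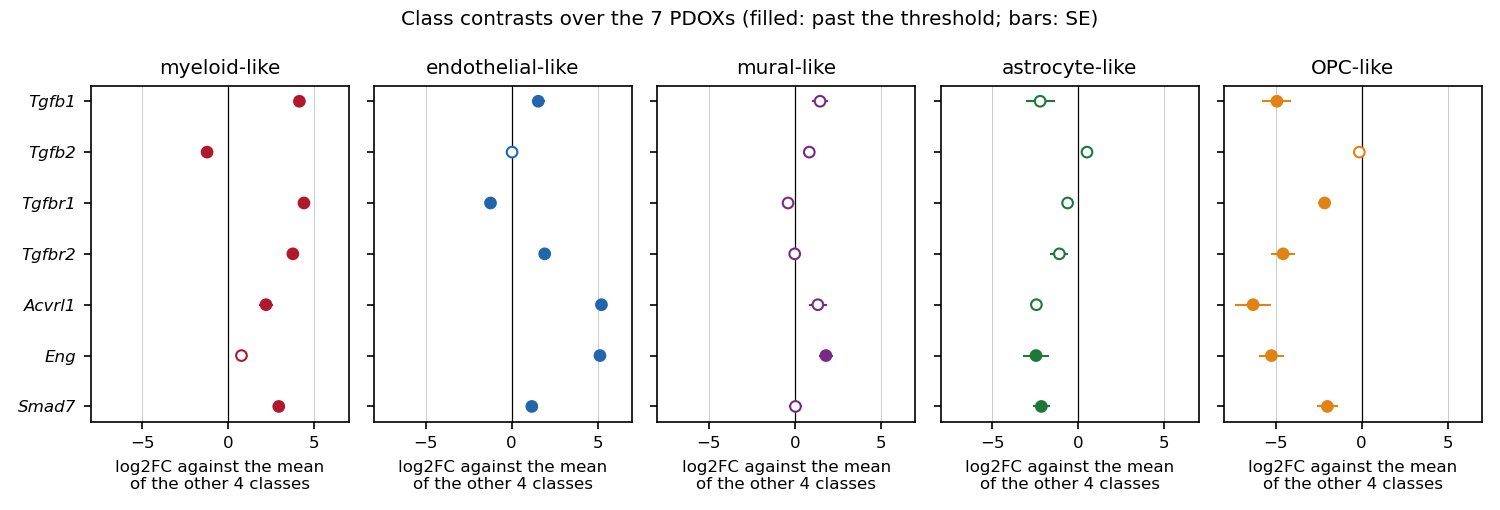
Log2 fold change of the 7 tested members in each class against the mean of the other 4, over 7 PDOXs (6 with astrocyte-like and OPC-like sums), with bars for the SE (none drawn for Acvrl1 in astrocyte-like cells, whose SE could not be estimated from 4 UMIs) and filled points for calls. Myeloid and endothelial points reach 4.40 and 5.22, and the OPC points lie at -1.99 or below apart from that of Tgfb2.

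Pairs of classes were also compared member by member, with an exact two-sided sign-flip permutation test over PDOXs of the difference in CPM. Of 90 pairs, 35 reached the smallest p the design allows, 0.016 with 7 PDOXs or 0.031 with 6, and after adjustment over the 90 the smallest value was 0.078, so none passed 0.05. Pairs at the smallest p included myeloid-like above each other class for Tgfb1, Tgfbr1 and Tgfbr2, and endothelial-like above each other class for Acvrl1 and Eng, and above astrocyte-like, mural-like and OPC-like cells for Smad6. Smad6 had 1 UMI in mural-like and 0 in OPC-like cells, so for depth, as given above, these 2 pairs are not read as a difference in level. Pairs with endothelial-like cells on 1 side had no such separation for Smad7 against myeloid-like (p = 0.17, exact) or mural-like cells (p = 0.80, exact).

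At equal depth, each cell was thinned to 500 UMIs and shallower cells were left out, which kept 1893 of 3002 myeloid-like and 1253 of 1944 endothelial-like cells of the 7 PDOXs. Tgfbr1 was then seen in 30.3% of myeloid-like cells (95% exact binomial interval 28.3% to 32.4%, counting error only; 18.4% to 41.3% across PDOXs; 46.3% unthinned), against 1.52% to 3.48% in the other 4 classes. Tgfb1 was seen in 9.72%, Tgfbr2 in 9.09% and Smad7 in 5.55% of myeloid-like cells. Eng was seen in 14.1% (12.2% to 16.2%) and Acvrl1 in 11.4% (9.70% to 13.3%) of endothelial-like cells, and Acvrl1 in 0 of 1406 astrocyte-like and 0 of 569 OPC-like cells, which allows up to 0.213% and 0.527% of cells with a UMI at this depth (3 counts of the total) and sets no limit on cells that express the gene. Unthinned, 0.200% of the astrocyte-like cells had an Acvrl1 UMI. Tgfb2 was seen in 6.38% of mural-like, 5.45% of OPC-like, 4.07% of endothelial-like, 3.98% of astrocyte-like and 1.43% of myeloid-like cells. Tgfb3 was seen in 2.32% of mural-like cells and in at most 0.527% of any other of the 5 classes. Smad6 was seen in 0 to 5 cells of each of the 5 classes, at most 0.319%, and the 0 of 569 OPC-like cells allow up to 0.527%. The intervals of Tgfb2 overlapped among the 4 classes other than myeloid-like.

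**Figure D3:**
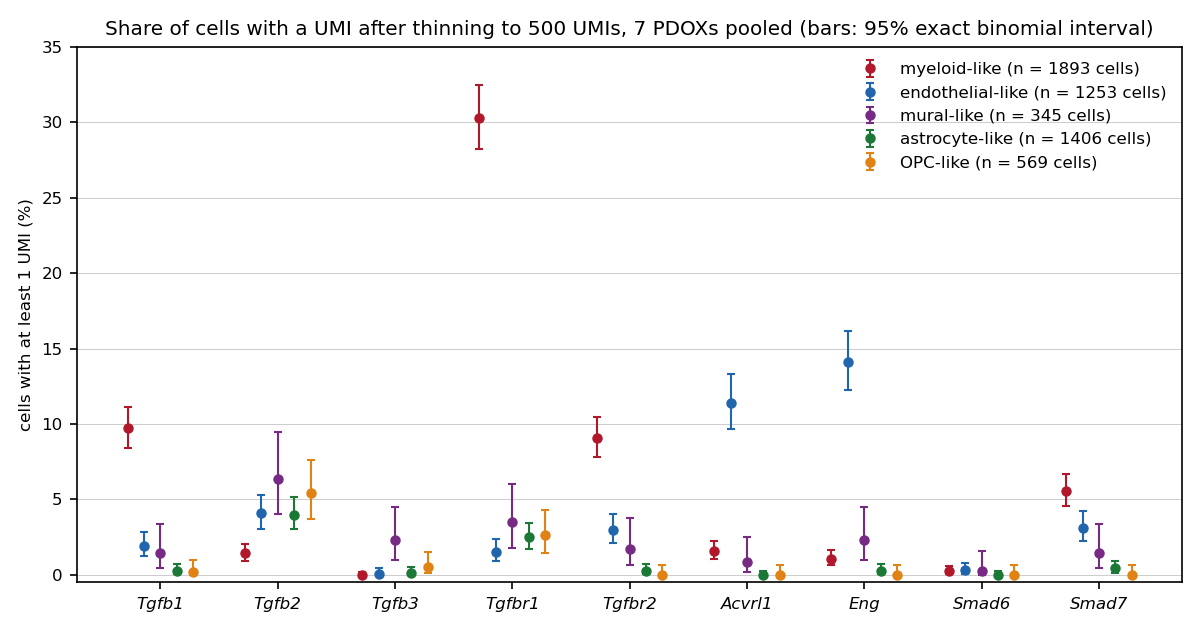
Share of cells (%) with at least 1 UMI of each member after thinning to 500 UMIs, for 5 classes of the 7 pooled PDOXs, with 95% exact binomial intervals. Myeloid-like cells stand apart for Tgfbr1 at 30.3% and endothelial-like cells for Eng at 14.1% and Acvrl1 at 11.4%.

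The clusters inside a class were set side by side as a description, without a test, since they were formed from the same cells. Endothelial-like cells formed cluster 0, led by the blood-brain barrier genes Ly6c1, Cldn5 and Slco1a4, and cluster 8, led by Ctla2a, Scgb3a1, Igfbp7 and Col4a2. In 6 PDOXs with at least 10 cells of both, cluster 0 had more Acvrl1 in 6 of 6 (medians 302 and 174 CPM), more Smad7 in 6 of 6 (81.2 and 23.2 CPM), more Tgfb2 in 6 of 6 (132 and 42.2 CPM) and more Tgfbr1 in 6 of 6 (49.2 and 26.2 CPM). In clusters 0 and 8 these rested on 262 and 241 UMIs of Acvrl1, 81 and 29 of Smad7, 112 and 50 of Tgfb2, and 50 and 46 of Tgfbr1. Tgfb1 was higher in cluster 8 in 5 of 6 PDOXs (medians 61.2 and 19.7 CPM), and Eng was higher there in 4 of 6 (309 and 310.1 CPM in clusters 8 and 0). Cluster 0 made up 26.7% of the endothelial-like cells in P3, 51.6% in T16, 63.5% in P13 and 83.3% to 98.1% in the other 4 PDOXs, and the 3 PDOXs with the smallest shares were those with the lowest whole-class Acvrl1, Tgfb2 and Smad7. Inside cluster 0, Tgfb2 still ranged from 70.1 to 192.2 CPM, with T16, P3 and P13 lowest.

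Myeloid-like cells formed cluster 1, led by the microglial genes P2ry12, Gpr34 and Tmem119, clusters 3, 4 and 14, led by Spp1 with Cxcl13 or Cd74, and a small cluster 22 led by the macrophage genes Mrc1 and Ms4a7. Cluster 1 had more Tgfb1 than cluster 3 in 7 of 7 PDOXs (medians 159 and 100.9 CPM), more Smad7 in 7 of 7 (171 and 95.2 CPM) and more Tgfbr1 in 6 of 7 (955 and 686 CPM), T101 being the exception with 13 and 24 cells. In clusters 1 and 3 these rested on 73 and 344 UMIs of Tgfb1, 82 and 154 of Smad7, and 535 and 1075 of Tgfbr1. Against cluster 4, cluster 1 had more Tgfbr1 and more Tgfb1 in 7 of 7 PDOXs and more Smad7 in 6 of 7. Against cluster 14, in 4 PDOXs, it had more Tgfbr1 and Smad7 in 4 of 4 but more Tgfb1 in 2 of 4 (medians 185 and 213 CPM), and Tgfbr2 was higher in cluster 14 in 4 of 4. Tgfbr2 was higher in cluster 1 than in cluster 3 in 3 of 7 PDOXs, and Tgfb2 and Acvrl1 had 5 and 12 UMIs in cluster 1. Cells of cluster 14 had a median of 8090 UMIs, against 405 to 1273 in clusters 1, 3 and 4, and the part of depth in these differences was not tested beyond the scaling to CPM. Cluster 22 held Tgfbr1 at 116 to 464 CPM in 3 PDOXs, below cluster 1 of the same PDOX each time.

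Mural-like cells formed cluster 11, led by Mgp, Rgs5 and Vtn, and cluster 19, led by the contractile genes Acta2, Myh11 and Tagln. In 5 PDOXs with both, Tgfb3 was higher in cluster 19 in 3 and in cluster 11 in none, with 14 and 23 UMIs, and Tgfb1, Acvrl1 and Eng had 0, 0 and 1 UMIs in cluster 19, against 35, 20 and 45 in cluster 11. The clusters differed in depth. The 1 Eng UMI of cluster 19 stood for 17.4 CPM, whereas the 1 Smad6 UMI of cluster 11 stood for 1.92 CPM. These UMI counts are therefore not read as a difference in level.

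**Figure D4:**
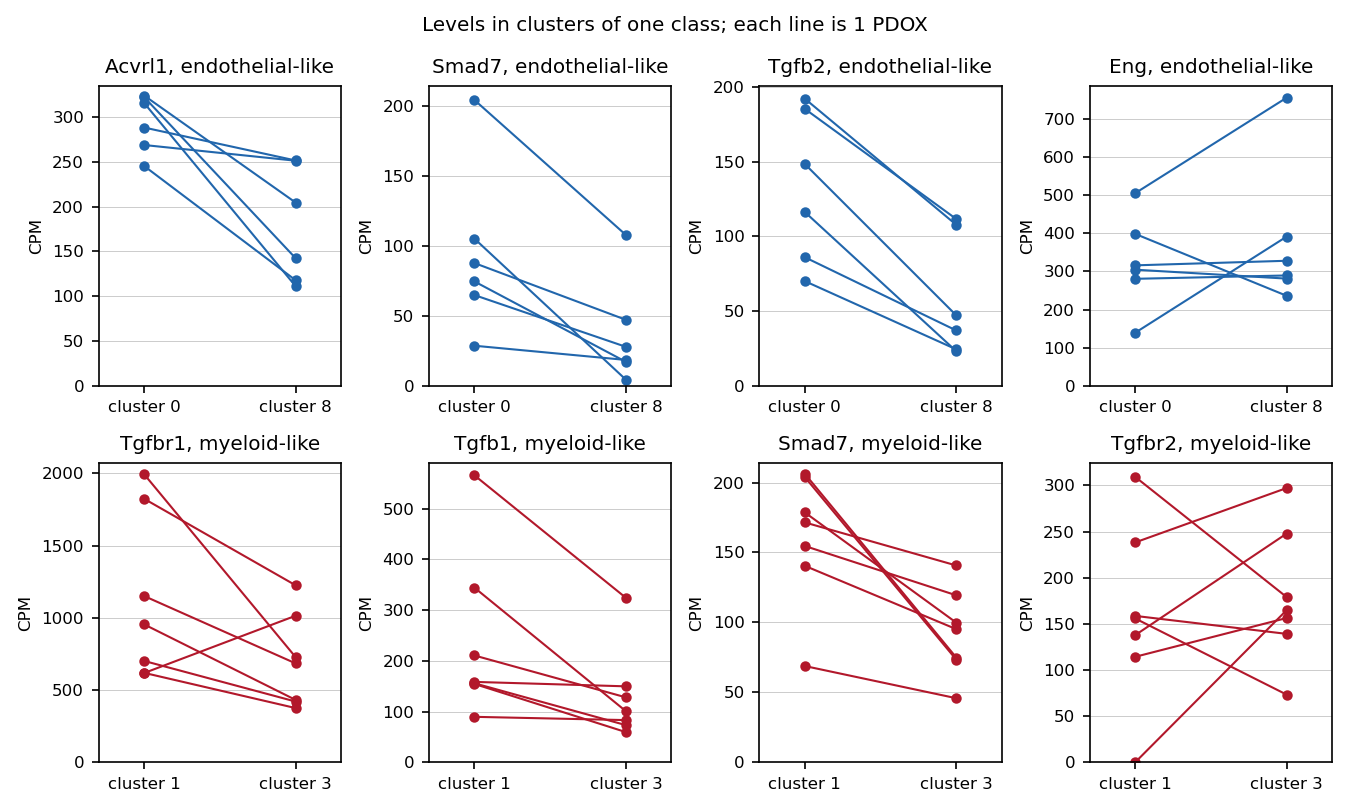
Levels (CPM) of 8 member and class pairs in clusters of 1 class, with a line for each PDOX (6 for endothelial-like, 7 for myeloid-like cells). Lines fall from cluster 0 to cluster 8 in 6 of 6 PDOXs for Acvrl1, Smad7 and Tgfb2, and from cluster 1 to cluster 3 in 7 of 7 for Tgfb1 and Smad7, while those of Eng and Tgfbr2 cross.

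The 7 PDOXs were compared with Nu-NB within classes, the question being whether the tumor changes the system in the host cells. With 1 normal brain, the spread between brains was taken to be that between PDOXs. No member was called in any class, against 0% of genes higher and 0.023% lower of 8680 in myeloid-like, 0% and 0% of 6162 in endothelial-like and 0% and 0% of 5456 in astrocyte-like cells (edgeR quasi-likelihood test), and 1761, 834 and 648 genes had an unadjusted p under 0.05. DESeq2 called 152 genes higher and 40 lower in myeloid-like cells, 2 genes in each of the others and no member. On simulated counts the same step recovered 34.0%, 0% and 59.5% of 8-fold changes in the myeloid, endothelial and astrocyte comparisons, so a missing call says little.

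Tgfbr1 in myeloid-like cells was 1768 CPM in Nu-NB (95% exact Poisson interval 1637 to 1907), above each of the 7 PDOXs at 439.5 to 1195 CPM (log2 fold change of PDOXs against Nu-NB -1.0018, SE 0.43, edgeR adjusted p = 0.21). The highest PDOX value, 1195 CPM, was that of P8, whose cells went through FACS as those of Nu-NB did. In Nu-NB 94.3% of the myeloid-like cells belonged to cluster 1, against 4.65% to 61.3% in the PDOXs. Inside cluster 1, Nu-NB had 1860 CPM and lay within the PDOX range of 619 to 1995 CPM, with P8 at 1825 CPM and T192 at 1995 CPM. The part of cluster shares and of the sort in the difference from Nu-NB was not tested.

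Tgfb2 in myeloid-like cells was 1 UMI in Nu-NB (2.63 CPM, 0.07 to 14.6) and 15.2 to 78.3 CPM in the PDOXs, higher in 7 of 7 (log2 fold change 4.03, SE 1.28, edgeR adjusted p = 0.11). Inside cluster 1, which held 94.3% of the Nu-NB cells, Tgfb2 was 2.82 CPM in Nu-NB and at 0 in P8, T101, T233 and P3, with 5 UMIs and at most 29.8 CPM in the other 3 PDOXs. The zeros came from 90, 13, 24 and 25 cells, too few to show absence. Choroid plexus markers in myeloid-like cells summed to 189 CPM in Nu-NB and to 382, 1866 and 12215 CPM (lowest, median and highest) in the PDOXs, whose choroid plexus-like cells had a median Tgfb2 level of 169 CPM. Mural markers in myeloid-like cells summed to 57.8 CPM in Nu-NB and 191 to 661 CPM in the PDOXs, and the part of either marker set in the Tgfb2 level was not tested. Acvrl1 was also higher in 7 of 7 PDOXs (18.4 CPM in Nu-NB, log2 fold change 1.08, SE 0.61, edgeR adjusted p = 0.33), and endothelial markers in myeloid-like cells were 34.1 CPM in Nu-NB against 120.2 to 544 CPM in the PDOXs, a part not tested. Tgfb1, Tgfbr2, Eng and Smad7 in myeloid-like cells had log2 fold changes from -0.76 to 0.45, with PDOX values on both sides of Nu-NB. Endothelial-like cells of Nu-NB numbered 34, with 15911 UMIs, so that Smad7 (6 UMIs, 377 CPM, interval 138 to 821) and Tgfb2 (4 UMIs, 251 CPM, interval 68.5 to 644) were above all 7 PDOXs on few molecules. Smad6 was also above them (1 UMI, 62.8 CPM, interval 1.59 to 350.2), whereas Tgfb1 was at 0 UMIs in Nu-NB (up to 232 CPM) and below all 7, an interval that covers their levels. All Nu-NB cells of that class lay in cluster 0, and the median log2 fold change of all genes was 0.70 there. In astrocyte-like cells Tgfb2 was 82.6 CPM in Nu-NB and a mean of 97.6 CPM in 6 PDOXs, and Tgfbr1 46.5 and 48.4 CPM.

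**Figure D5:**
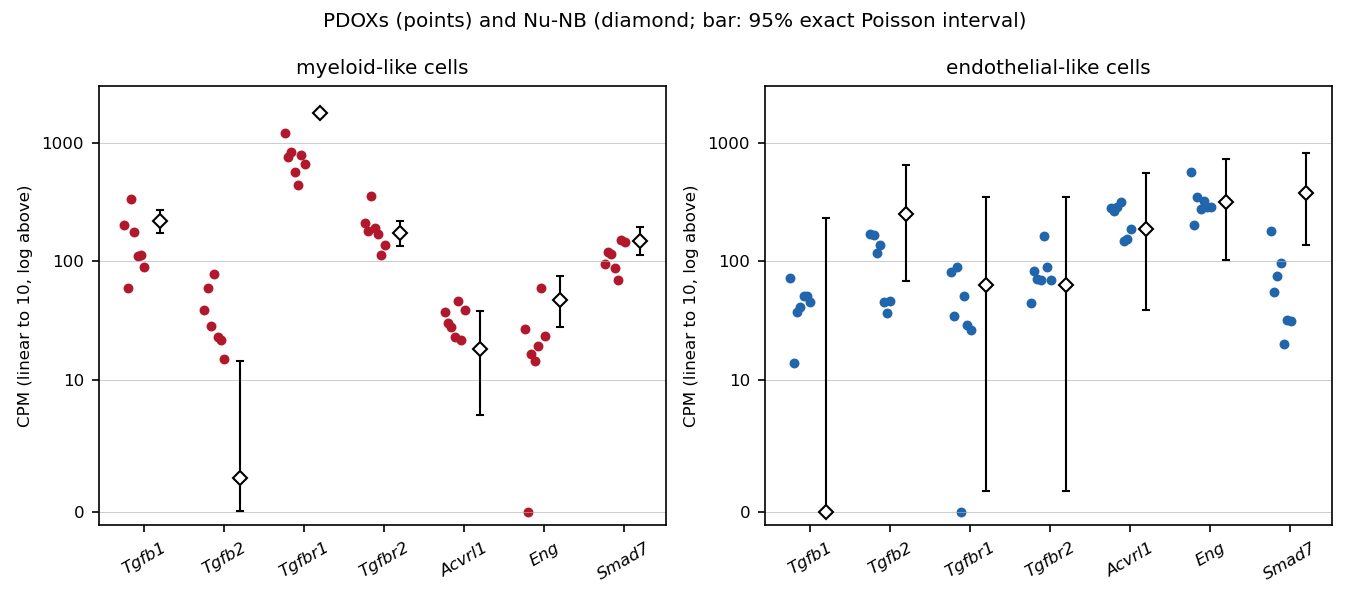
Levels (CPM, axis linear to 10 and logarithmic above) of 7 members in myeloid-like and endothelial-like cells, with 1 point per PDOX and a diamond for Nu-NB with its 95% exact Poisson interval. Myeloid Tgfbr1 of Nu-NB, 1768 CPM, lies above all 7 PDOXs, myeloid Tgfb2 below them, and most endothelial intervals of Nu-NB span the PDOX points.

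For temozolomide there was 1 library on either side and no test, and the intervals cover counting error only. In myeloid-like cells, 311 in P3TMZ, Tgfbr1 was 445 and 439.5 CPM, a ratio of 1.01 (95% exact interval 0.81 to 1.27), and the ratio was 1.06 (0.74 to 1.55) for Tgfbr2 and 1.07 (0.61 to 1.98) for Smad7. Tgfb1 was 163 and 112 CPM (ratio 1.46, 0.95 to 2.29). Acvrl1 was 13.9 and 46.3 CPM on 8 and 12 UMIs (ratio 0.30, 0.11 to 0.80), the only member of the myeloid-like and endothelial-like cells whose interval left out 1. In endothelial-like cells the ratio was 1.69 (0.97 to 2.93) for Acvrl1, 1.34 (0.91 to 1.97) for Eng and 0.84 (0.43 to 1.58) for Tgfbr2. The clusters differed between the libraries as well, with cluster 1 at 32.8% of myeloid-like cells in P3TMZ and 10.7% in P3, and cluster 0 at 59.2% and 26.7% of endothelial-like cells.

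Of 57 other genes of the TGF-β and bone morphogenetic protein (BMP) pathway, 48 were in every library and 20 passed the filter in the class contrasts. In myeloid-like cells 6 were called higher and 6 lower, against 19.6% and 15.9% of all genes. Among those higher were the TGF-β target and feedback regulator Pmepa1 (315 CPM against 43.6, log2 fold change 3.10) and Ppp1r15a (295 against 66.6, 2.71), a phosphatase subunit that is also a stress gene. Lower were Ltbp4, which binds latent ligand (-3.66), the BMP target Id3 (40.1 against 737 CPM, -3.17) and the basement membrane collagen gene Col4a1 (-2.87). The median of the 20 was -0.38, against 0.03 over all genes.

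In endothelial-like cells 7 of the 20 were called higher and 5 lower, against 14.4% and 16.1% of all genes, with a median of 0.63 against 0.08. Id1, a target of Acvrl1 signaling, was at 576 CPM against 38.9 (log2 fold change 4.61, SE 0.23), followed by Ltbp4 (107 against 12.9, 3.51) and Col4a1 (649 against 309.9, 3.22). The integrin subunit gene Itgb8, whose product activates latent TGF-β (5.37 against 145 CPM, -4.35), and the BMP receptors Bmpr1a (-4.05) and Bmpr1b (-4.01) were lower. Of the 7 tested targets, 4 were called higher in endothelial-like cells and 1 lower, and 3 higher and 4 lower in myeloid-like cells.

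In astrocyte-like cells 6 were called higher and 3 lower, against 16.7% and 12.8% of all genes, with a median of -0.10 as over all genes. Bmpr1b (188 against 9.92 CPM, log2 fold change 4.92), Itgb8 (275 against 77.7, 3.47) and the BMP target Id2 (1026 against 276, 2.62) were higher, and Col4a1 (-2.38), Ppp1r15a (-1.28) and the Smad co-repressor Skil (-1.25) were lower. In mural-like cells 5 were called higher and 2 lower, against 9.25% and 4.33% of all genes, among them Col4a1 (1158 against 183 CPM, 4.03) and Ltbp4 (37.9 against 30.2, 2.11), with Id2 (-2.27) and Skil (-1.56) lower, beside the fibroblast markers given above. In OPC-like cells 2 were called higher, Itgb8 (265 against 80.4 CPM, 2.73) and Itgav (211 against 42.5, 1.80), which encodes its partner subunit, and 8 lower, against 10.5% and 14.9% of all genes, with Id1 (10.8 against 180.1 CPM, -4.85) and Id3 (-3.22) among them. The medians were -0.33 in mural-like and -0.48 in OPC-like cells, against -0.13 and -0.09 over all genes. Against Nu-NB, 0 of 33, 25 and 23 tested pathway genes were called in myeloid-like, endothelial-like and astrocyte-like cells (edgeR quasi-likelihood test), with 6, 5 and 3 at an unadjusted p under 0.05, beside 1761 of 8680, 834 of 6162 and 648 of 5456 among all genes.

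Genes with the most similar pattern were found by Pearson's correlation of log2(CPM + 10) over 33 class-by-PDOX sums, among 7223 genes with a mean of at least 20 CPM. These sums share libraries and classes, so the values are a description. Tgfbr1 was close to Itgam (0.88) and Cd52 (0.87), genes of microglia and other myeloid cells, and Tgfbr2 to Ucp2 (0.93), Srgn (0.92) and Fmnl3 (0.90). Tgfb1 was closest to Trf (0.88), Tgfbr2 (0.87) and Lrrk1 (0.86). Eng was closest to Cast (0.94), Pglyrp1 (0.94) and the endothelial receptor gene Tie1 (0.93), and Acvrl1 to Edn1, which encodes endothelin (0.92), Fli1 (0.91) and Eng (0.91). Smad7 was closest to Tec (0.84), Aim2 (0.83) and Pdgfb (0.82). Tgfb2 had looser neighbours, Cops8 (0.78), Lima1 (0.76) and Ube2l3 (0.73), and its correlation with Tgfbr1 was -0.45. Tgfb3 and Smad6, with fewer than 100 UMIs, were left out.

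Outside the 5 classes, Tgfbr1 in choroid plexus-like cells ranged from 82.0 CPM in P8 to 537 CPM in T192, over 6 PDOXs. Myeloid markers in the same cells ranged from 697 CPM in P8 to 34574 CPM in P3, so that the PDOX with the fewest myeloid molecules had the lowest Tgfbr1, as had Nu-NB with 312 CPM of myeloid markers and 52.0 CPM of Tgfbr1. In ependymal-like cells Tgfbr1 was 0, 368 and 614 CPM in 3 PDOXs with 11038 to 22255 CPM of myeloid markers. The part of myeloid RNA in these levels was not tested. Fibroblast-like cells, 103 in 3 PDOXs, had Tgfbr2 at 106, 106 and 185 CPM and Tgfb3 at 0, 42.3 and 123 CPM, on 16 and 8 UMIs. In the 2288 unnamed cells the median levels were 125 CPM for Tgfbr1, 78.0 CPM for Tgfb2 and 27.7 CPM for Tgfb1, and 0 CPM for Acvrl1. In cluster 12 alone, Tgfbr1 was 314, 392, 546 and 405 CPM in P8, T101, T192 and P13, against 1195, 751, 837 and 659 CPM in the myeloid-like cells of the same PDOXs, and the counting intervals overlapped in T192. In the 319 cells of T101, Tgfb1 was 129 CPM (29 UMIs), inside the counting interval of the 2 UMIs in its myeloid-like cells (60.1 CPM, 7.28 to 217), and Tgfbr2 was 134 CPM against 180.4 CPM. In the mixed clusters 13 and 16, Tgfbr1 was 351 and 459 CPM in P13, against 659 CPM in its myeloid-like cells, and 841 and 804 CPM in T192, against 837 CPM. Tgfb2 in P13 was 58.0 and 18.5 CPM in clusters 13 and 16, against 15.2 CPM in its myeloid-like cells.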

How the data were processed

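Mouse cells of 7 untreated PDOXs, P3TMZ and 1 normal nude brain were profiled by Drop-seq. The authors deposited raw UMI counts per gene and cell for each library (per the submitters' processing notes bcl2fastq 2.0, STAR and GRCm38/mm10), after assigning reads to mouse or human; 3′ tags do not cover whole transcripts, so levels were not compared between genes. The study's limits were applied, namely 5 cells per gene, 200 genes per cell and a mitochondrial share of up to 30%. The 5% of cells with the highest simulated-doublet score were left out.

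Cells were clustered (scanpy 1.11.5, leidenalg 0.10.2, 2000 variable genes, 30 components, 20 neighbors, resolution 1) without the members and pathway genes. Clusters were named from markers, and cells with over 1% of their UMIs on some marker sets of other classes were left out. This limit did not cover every class and marker set. Choroid plexus markers still summed to up to 12215 CPM in myeloid-like cells of the PDOXs, and fibroblast markers to up to 16908 CPM in mural-like cells. Myeloid markers reached 34574 CPM in choroid plexus-like cells. The naming rule and the 1% limit were set after the clusters were seen. UMIs were summed per library and class with at least 10 cells, since cells are not replicates, and tested with edgeR 4.0.16 (quasi-likelihood, TMM) in R 4.3.3, with the PDOX as a block in class contrasts because classes of 1 PDOX come from 1 animal. DESeq2 1.42.0 was an alternative. Adjusted p values are Benjamini-Hochberg. The p values of the class contrasts are set against the spread of class differences across PDOXs, the PDOX term being taken out. Those against Nu-NB are set against the spread between PDOXs. Of the PDOXs, T192 and T233 share a patient. Exact permutation tests and binomial and Poisson intervals used scipy 1.17.1. On simulated counts the class contrasts recovered 85.5% to 89.0% of 8-fold changes.

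The members and gene lists were chosen with earlier results of these data known. All 9 members were named. Of the other pathway genes, up to 3 a direction were named per class contrast, those with the largest change among calls at a mean of at least 20 CPM on either side, and for each member with at least 100 UMIs the 3 genes with the highest correlation. Some genes that this rule names are not reported here.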

Additional observations from a re-analysis of the deposited data

Results flagged for a closer look

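Of 43 groups of 6 or 7 PDOXs checked for a library far from the rest (Dixon's criterion, which for normally spread values marks about 1 in 20 by chance), 11 had one. Those with 30 or more UMIs were Tgfbr2 in myeloid-like cells of T192 (355.5 CPM, 904 UMIs), Tgfbr2 in endothelial-like cells of P3 (162.8 CPM, 32 UMIs), Eng in endothelial-like cells of P8 (567.3 CPM, 63 UMIs) and Tgfb2 in astrocyte-like cells of T192 (190.3 CPM, 30 UMIs). The other 7 rested on 1 to 3 UMIs. They were Smad6 in astrocyte-like cells of T192 (12.7 CPM), Smad6 in mural-like cells of P13 (1.73 CPM), Smad7 in mural-like cells of T101 (284.7 CPM), Tgfb1 in OPC-like cells of T16 (7.27 CPM), Tgfb3 in OPC-like cells of T101 (27.7 CPM), and Tgfbr2 (2.96 CPM) and Eng (1.48 CPM) in OPC-like cells of P8.

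Tgfb2 lay on opposite sides of Nu-NB in myeloid-like and endothelial-like cells, and was called in neither. Its mean difference from Nu-NB was 35.4 CPM in myeloid-like cells, with all 7 PDOXs above, and -147.9 CPM in endothelial-like cells, with all 7 below. The difference between the classes was not tested, and the Nu-NB values rest on 1 and 4 UMIs. The cells also lay in different clusters, with 94.3% of the Nu-NB myeloid-like cells in cluster 1. There Tgfb2 was at 0 in 4 of 7 PDOXs, on 13 to 90 cells each, which is too few to show absence. All of its endothelial-like cells were in cluster 0, where Nu-NB had 251 CPM (95% exact Poisson interval 68.5 to 644) and the PDOXs 70.1 to 192.2 CPM.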

How the results depend on the processing

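For the class contrasts, 630 values of the 35 member results were recomputed under alternatives, of which 559 kept direction and call, 38 lost the call, 6 gained it with the same sign and 27 changed sign; against Nu-NB it was 244 of 249, with 5 sign changes. Keeping cells with markers of 2 classes and leaving out mural cells with fibroblast markers were chosen after seeing the data. Without the replicate block, only Smad7 in OPC-like cells lost its call (-1.77). The causes were not tested.

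The member counts moved as follows. Lower in myeloid-like cells, 1 became 2 without a filter and 0 to 1 leaving out each PDOX (0 without P13). Higher in endothelial-like cells, 5 became 3 with DESeq2, 3 with 2-class cells kept, and 3 to 5 leaving out each PDOX. Lower in astrocyte-like cells, 2 became 4 with DESeq2, 1 with RLE size factors, no filter, T192 and T233 summed, resolution 2 or fibroblast-marked mural cells out, 0 with at least 500 genes, and 1 to 2 leaving out each PDOX. Higher in mural-like cells, 1 became 0 with DESeq2 or fibroblast-marked cells out, 2 without a filter or with at least 500 genes, 5 with 2-class cells kept, and 0 to 1 leaving out each PDOX. Lower in OPC-like cells, 6 became 4 without P8, where Tgfb1 and Smad7 were lost, and was 5 or 6 otherwise.

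With 2-class cells kept, mural Tgfbr1 changed from -0.40 to 1.85 and mural Tgfbr2 from -0.01 to 1.90, both then called. Of the 6 calls gained without a sign change, mural Tgfb1 (2.35) and Smad7 (1.39) belonged to this setting. The others were astrocyte Tgfb1 with DESeq2 (-2.23) and without P8 (-2.67), astrocyte Acvrl1 with DESeq2 (-2.82) and mural Tgfb1 with at least 500 genes (2.37). The other sign changes were of values that were not called. Tgfb2 in endothelial-like cells was -0.032 with DESeq2, -0.14 with RLE, -0.0058 with T192 and T233 summed, -0.44 with at least 500 genes, -0.040 at resolution 2 and -0.12 to 0.42 leaving out each PDOX. Smad7 in mural-like cells was -4.8e-05 with RLE, -0.022 without a filter, -0.014 summed, -0.21 with 500 genes, -0.26 with 10% doublets out, -0.22 at resolution 2, -0.64 with fibroblast-marked cells out and -0.31 to 0.77 leaving out each PDOX. Mural Tgfbr2 was 0.17 with fibroblast-marked cells out and -0.069 to 0.35 leaving out each PDOX, and mural Tgfb2 -0.079 to 0.97. OPC Tgfb2 was 0.0094 with 500 genes and -0.37 to 0.033 leaving out each PDOX. Against Nu-NB, myeloid Tgfb1 was 0.35 with 500 genes, and leaving out each PDOX gave -0.30 to 0.33 for endothelial Tgfbr1, -0.12 to 0.29 for astrocyte Tgfb2 and -0.033 to 0.21 for astrocyte Tgfbr1. Endothelial-like cells of Nu-NB gave no value with at least 500 genes.

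Over all genes, calls without a filter were 3941 for 1711 in myeloid-like, 2969 for 1472 in endothelial-like, 2876 for 1425 in astrocyte-like, 1038 for 656 in mural-like (413 with 500 genes) and 2130 for 1230 in OPC-like cells (722 without P8). Against Nu-NB, the 2 myeloid calls became 152 higher and 40 lower with DESeq2, 8 with RLE, 11 without a filter, 109 without P8, 9 without T16 and 5 with 10% doublets out; the 0 astrocyte calls became 2 with DESeq2, 32 without a filter, 41 without P8 and 10 without T192, and the 0 endothelial calls 2 with DESeq2. Shares in the leading class at 300 and 800 UMIs were 6.30% and 13.4% for Tgfb1, 22.05% and 41.9% for Tgfbr1, 5.44% and 15.7% for Tgfbr2, 6.96% and 16.2% for Acvrl1, 9.33% and 21.6% for Eng, and 3.19% and 8.41% for Smad7. Tgfb3 and Smad6 rest on few molecules, 60 and 50 UMIs in the 5 classes, as do all endothelial values of Nu-NB, from 34 cells.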
